A study of Mus musculus with 10 samples.

Results

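Delayed rectifier and M-current potassium channel genes, 7 in all, were followed across 10 single neurons of the preBötzinger complex (preBötC), the brainstem network that generates inspiratory rhythm. They are Kcna1 and Kcna2 of the Kv1 family, Kcnb2 of the Kv2 family, Kcnc1 and Kcnc2 of the Kv3 family, and Kcnq3 and Kcnq5 of the Kv7 family, chosen by name as delayed rectifier and M-current subunits, and all 7 were found among the 55367 genes of the deposited files. Each sample was the cytoplasm of 1 inspiratory neuron, drawn into the patch pipette after recording in a slice from a neonatal mouse, so that every library stands for 1 cell. Samples 4, 5, 6 and 7 were labelled Type-1, sample 1 was labelled Type-2, and samples 2, 3, 8, 9 and 10 were labelled Unknown, which gives groups of 4, 1 and 5 neurons. Type-1 neurons are those with delayed excitation and a long inspiratory drive latency, and Type-2 neurons those with a short latency and a sag in response to hyperpolarization. Samples 1, 5, 6 and 7 were Dbx1-derived neurons from Dbx1;Ai148 mice, in which Cre expressed from Dbx1 switches on the calcium indicator GCaMP6f in cells descended from Dbx1-expressing precursors, and the other 6 were WT neurons from CD-1 mice. The labels give Dbx1-derived or WT for each neuron, and the mouse lines behind these names come from the study's text, whose figure legends assign some samples differently. Samples 1, 3, 5 and 8 were taken at P0, sample 10 at P1, samples 2 and 9 at P2, and samples 4, 6 and 7 at P3. Which animal a neuron came from is not in the labels, and Type-2 is represented by 1 cell, so groups were compared without a test. Values are reported per neuron, and means ± SD over neurons are descriptions of these cells.

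Voltage-gated potassium channels are tetramers that open on depolarization and carry the outward current that ends the action potential. Kv1 channels open near spike threshold and restrain repetitive firing, Kv2 channels give a slow delayed rectifier, and Kv3 channels open only at strongly depolarized voltages and close fast, which permits brief spikes at high rates. Kv7 channels pass the M-current, a slow current without inactivation that opens below threshold and is suppressed through muscarinic and other Gq-coupled receptors. Neurons build these channels from several subunits of the same family, so the level of a single gene describes only part of a channel.

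The stretch of coding sequence around the selectivity filter shows how close these genes are where the pore is narrowest, and is given for that reason for 4 of the 7. In each sequence below, read 5′ to 3′ on the coding strand from GENCODE M21 transcripts on GRCm38, the capitals are the codons of the Gly-Tyr-Gly signature of the filter, with 30 coding bases on either side.
Kcna1: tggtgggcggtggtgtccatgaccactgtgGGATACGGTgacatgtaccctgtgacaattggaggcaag
Kcna2: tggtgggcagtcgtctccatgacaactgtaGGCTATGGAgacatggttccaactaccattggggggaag
Kcnb2: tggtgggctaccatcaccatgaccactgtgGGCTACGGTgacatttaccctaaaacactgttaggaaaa
Kcnc2: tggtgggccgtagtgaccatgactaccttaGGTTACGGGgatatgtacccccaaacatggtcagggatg

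These 69 bases lie in coding exons. They were at chr6:126642198-126642266 on the minus strand for Kcna1, chr3:107105200-107105268 on the plus strand for Kcna2, chr1:15710022-15710090 on the plus strand for Kcnb2 and chr10:112456205-112456273 on the plus strand for Kcnc2. The stretch was identical at 73.9% of bases for Kcna1 with Kcna2 of the same family and also for Kcna1 with Kcnb2, and the most distant of these 4, Kcna2 with Kcnc2, shared 62.3%. No stretch of 50 bases in the transcript examined for any of the 7 genes was found in a transcript of another of them, and the share of such stretches found in transcripts of any other gene ran from 0% to 0.644%, the highest value being that of Kcnc1. Kcnq5 alone shared exonic bases with another gene, 237 bases with the antisense Gm26580, and because the counting is not stated to use strand, fragments of the 2 cannot be told apart there.

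Libraries held between 21392146 and 36629393 fragments on genes, and 5055 to 9307 genes reached 1 FPKM (fragments per kilobase of exon, scaled to 1e+06 fragments on genes in a library). A gene without a fragment could hold up to 3 by chance, equal to 0.14 CPM in the shallowest library and 0.0819 CPM in the deepest. Because no molecular identifiers were used, these limits and the counting intervals given with some values cover counting error only. The neuronal list of 8 markers had a mean log2(FPKM + 1) of 6.38 to 7.58 in 8 of the neurons, 4.51 in sample 1 and 2.10 in sample 4. Sample 4, labelled Type-1, had 8 of 8 microglial markers at 1 FPKM or more, summing to 14797 FPKM against 0.625 to 2030 FPKM in the other neurons. Of the microglial markers, 7 of 8 also reached 1 FPKM in samples 2 and 10, and 6 in samples 5 and 8. Astrocyte markers were at 1 FPKM or more for 10 of 10 genes in sample 8, 9 in sample 3 and 7 in sample 2. Markers of the oligodendrocyte lineage were so for 4 of 8 genes in samples 3 and 8 and 3 in sample 2. No endothelial or mural marker reached that level in any neuron. Sample 9 was the only neuron with the 3 cholinergic motoneuron markers at 1 FPKM or more (Slc18a3 at 444 FPKM). Samples 1, 2 and 3 had the fewest genes at 1 FPKM or more, 5065, 5623 and 5055 against 6632 to 9307 in the other neurons. The study's text reports that cDNA was least concentrated in samples 1 to 4, though all passed its criterion, and that their median log10(FPKM) was lower. The share of counts on mitochondrial genes was 0.219% to 1.25% in the 4 Dbx1-derived neurons, 0.347% in sample 10 and 5.05% to 9.85% in the other 5 WT neurons. Transmitter markers differed too, with the glutamatergic Slc17a6 at 101 to 158 FPKM in samples 5, 6 and 7 and at 230 FPKM in sample 8. The GABAergic Gad1 was at 71.8, 37.2 and 92 FPKM in samples 1, 3 and 10, and at 8.28 FPKM in sample 8. Of the 4 inhibitory markers, Slc32a1 went the other way, at 0.0167, 0 and 0.375 FPKM in samples 1, 3 and 10. Slc6a5 did so in sample 3 only, at 0.0401 FPKM against 146 and 8.6 FPKM in samples 1 and 10. The highest value of Slc32a1 was 5.95 FPKM in sample 2. The 2 group comparisons are therefore also given without samples 4 and 9 and without samples 1 to 4. The part of other cells, RNA quality or transmitter class in the channel values was not tested.

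Across the 7 genes the neurons differed mainly in which genes were detected at 1 FPKM or more, which is what present means below. Whether a gene below that level was absent from the cell, or lost when its RNA was drawn up or copied, was not tested. Of the 70 values, 22 were at 1 FPKM or more, the lowest of these being 1.09 FPKM and the smallest count 331 fragments. A further 23 were above 0 and at most 0.0524 FPKM, with at most 24 fragments each, and 22 had no fragment. Only 3 values lay in the 20.8-fold gap between 0.0524 and 1.09 FPKM, which are Kcnb2 in samples 4 and 5 and Kcnq5 in sample 10. Values between 0.1 and 1 FPKM were also few over all genes with a mean of at least 1 FPKM, 6.92% of them. Over those genes 53.8% of values were at 1 FPKM or more, and over all genes with a fragment in at least 1 neuron 35.1% were.

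**Figure D1:**
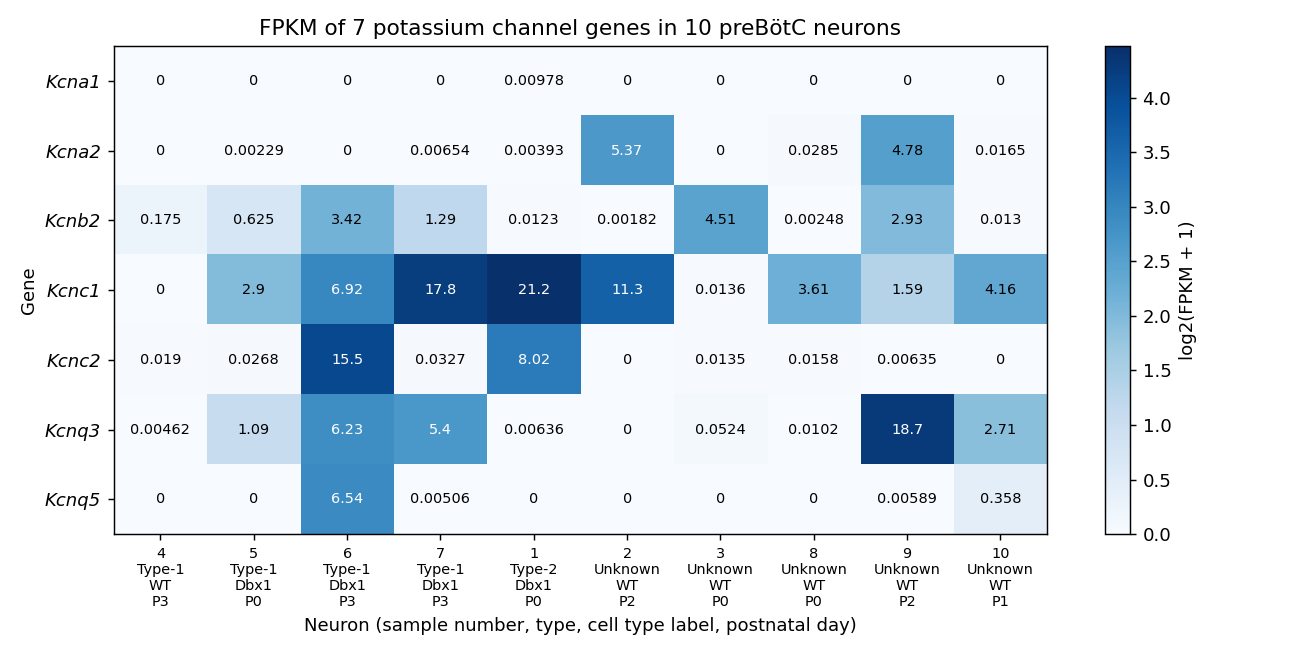
FPKM of the 7 genes (rows) in the 10 neurons (columns, with sample number, type, cell type label and postnatal day), printed in each cell and shaded by log2(FPKM + 1). Kcnc1 is present in 8 neurons, Kcna1 in none, and sample 6 is the neuron with the most genes at 1 FPKM or more, 5 of 7.

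Counted by neuron, sample 6 had 5 of the 7 genes at 1 FPKM or more, sample 9 had 4, sample 7 had 3, samples 1, 2, 5 and 10 had 2, samples 3 and 8 had 1, and sample 4 had none. Summed over the 7 genes, the level was highest in sample 6 at 38.6 FPKM, followed by samples 1, 9 and 7 at 29.3, 28 and 24.5 FPKM, and lowest in sample 4 at 0.198 FPKM. Sample 3, with 5055 genes at 1 FPKM or more, and sample 8, with 9307, both held 1 of the 7 genes at that level. For 5 of the 7 genes, a single neuron held more than 50% of the FPKM summed over the 10 neurons, where 37.1% of genes with a mean of at least 1 FPKM did so. These were Kcna1 with 1 fragment in all, Kcnq5 (94.7%, sample 6), Kcnc2 (65.6%, sample 6), Kcnq3 (54.6%, sample 9) and Kcna2 (52.6%, sample 2). Kcna1 and Kcnq5 had means of 0.000978 and 0.691 FPKM and were not among the genes of that background.

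Kcna1 and Kcna2 code for the Kv1.1 and Kv1.2 subunits of the low-threshold current of axons. Kcna1 (chr6:126640397-126646384) was not detected beyond 1 fragment in sample 1, equal to 0.00978 FPKM, and had no fragment in the other 9 neurons. The limit that a count of 0 allows for it was at most 0.0284 FPKM in those neurons. Kcna2 (chr3:107101146-107115005) was present in samples 2 and 9 and close to absent in the rest. It stood at 5.37 FPKM in sample 2 (2317 fragments, 95% exact Poisson interval 5.15 to 5.59 FPKM) and at 4.78 FPKM in sample 9 (1257 fragments, 4.52 to 5.06 FPKM). The other 8 neurons held 0 to 9 fragments, at most 0.0285 FPKM in sample 8. The mean was 0.00221 ± 0.00308 FPKM over the 4 Type-1 neurons and 2.04 ± 2.78 FPKM over the 5 Unknown neurons (SD), and the Type-2 neuron was at 0.00393 FPKM. The intervals of the 2 high values do not overlap, but they do not cover the error of amplifying RNA from a single cell, so no order between them is drawn.

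Where Kv1 genes were abundant, they were others of the family. Kcna3, the Kv1.3 subunit, was at 1 FPKM or more in 5 neurons, with 70.8, 51.9, 45.8, 18 and 12.4 FPKM in samples 2, 9, 10, 8 and 5. Both neurons with Kcna2 had Kcna3, which was 13.2 times as high in sample 2 and 10.9 times in sample 9, so that Kcna2 made up 7.04% and 8.43% of the Kv1 family there. Kcna4, the Kv1.4 subunit of an inactivating A-type current, was at 4.23, 21.4 and 19.1 FPKM in samples 5, 6 and 7, the Dbx1-derived Type-1 neurons, and at most 0.0562 FPKM elsewhere. Kcna6, the Kv1.6 subunit, was at 54.1 FPKM in the Type-2 neuron, and at 3.06 and 8.16 FPKM in samples 6 and 8. Kcna7 had 12.8 FPKM in sample 4 and was named after its value was seen. Kcna5 and Kcna10 had no fragment in any neuron.

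Kcnb2 (chr1:15287254-15723750) codes for Kv2.2, a slow delayed rectifier subunit found on cell bodies and proximal dendrites. It was at 4.51 FPKM in sample 3 (2129 fragments), 3.42 FPKM in sample 6 (1635 fragments), 2.93 FPKM in sample 9 (981 fragments) and 1.29 FPKM in sample 7 (503 fragments). Sample 5 had 0.625 FPKM (347 fragments, 0.561 to 0.694 FPKM) and sample 4 had 0.175 FPKM (78 fragments, 0.138 to 0.218 FPKM). In samples 1, 2, 8 and 10 there were 1 to 6 fragments. Kcnb2 was therefore at 1 FPKM or more in 2 of 4 Type-1 neurons, in 2 of 5 Unknown neurons and not in the Type-2 neuron. The means were 1.38 ± 1.44 FPKM in Type-1 and 1.49 ± 2.11 FPKM in Unknown neurons.

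Kcnc1 (chr7:46396497-46438704), the Kv3.1 subunit of fast-spiking neurons, was the most widely present of the 7 genes. In order, its level was 21.2 FPKM in sample 1, 17.8 in sample 7, 11.3 in sample 2, 6.92 in sample 6, 4.16 in sample 10, 3.61 in sample 8, 2.9 in sample 5 and 1.59 in sample 9. Sample 3 had 4 fragments and sample 4 had none. The 8 neurons thus spanned a 13.4-fold range. The highest value, 20.6 to 21.9 FPKM by its counting interval, was that of the Type-2 neuron. That neuron also had Gad1 at 71.8 FPKM, the glycine transporter gene Slc6a5 at 146 FPKM, Slc17a6 at 0.26 FPKM and Slc32a1 at 0.0167 FPKM. Samples 3 and 10, with Gad1 at 37.2 and 92 FPKM, had Kcnc1 at 0.0136 and 4.16 FPKM. Means were 6.9 ± 7.79 FPKM in Type-1 and 4.14 ± 4.35 FPKM in Unknown neurons, and the range of the Unknown neurons, 0.0136 to 11.3 FPKM, lay within that of the Type-1 neurons, 0 to 17.8 FPKM.

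Kcnc2 (chr10:112271121-112467024), the Kv3.2 subunit that can join Kv3.1 in mixed channels, was present in samples 6 and 1 only at this level of detection. Sample 6 had 15.5 FPKM (3481 fragments) and sample 1 had 8.02 FPKM (1225 fragments), whereas the other 8 neurons had 0 to 7 fragments, at most 0.0327 FPKM. Both neurons also had Kcnc1, which was 2.64 times as high as Kcnc2 in sample 1 and 0.447 times as high in sample 6, so that the order of the genes was opposite in these 2 neurons. The other 6 neurons with Kcnc1 lacked Kcnc2 at 1 FPKM. Kcnc4, the Kv3.4 subunit of a fast-inactivating current, was at 5.88 to 34.2 FPKM in 7 neurons, of which 6 also had Kcnc1. Kcnc4 was at 34.2 FPKM in sample 10 and at 30.8 FPKM in sample 3, the neuron with Kcnc4 but without Kcnc1. In samples 8 and 9, which had Kcnc1, Kcnc4 was at 0.0196 and 0.0826 FPKM. The pairs and ratios of genes were chosen after their values were seen.

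**Figure D2:**
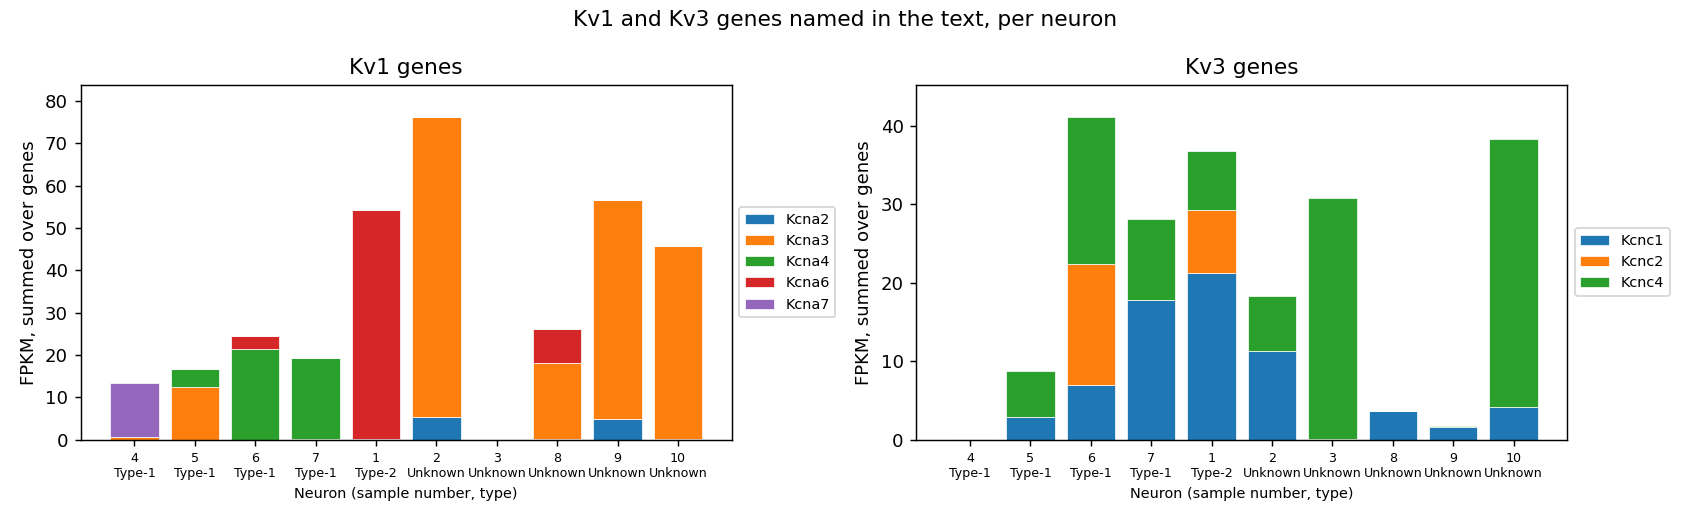
FPKM of the Kv1 and Kv3 genes named in the text, stacked per neuron (sample number and type on the horizontal axis). Kcna2 is a small part of the Kv1 bar in samples 2 and 9, and Kcnc1 is joined by Kcnc2 in samples 1 and 6.

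Kcnq3 (chr15:65986387-66286642) codes for Kv7.3, a subunit of the M-channel of many central neurons. Kcnq3 was at 18.7 FPKM in sample 9 (6057 fragments), 6.23 in sample 6 (2887), 5.4 in sample 7 (2040), 2.71 in sample 10 (1218) and 1.09 in sample 5 (586). The other 5 neurons had 0 to 24 fragments, the 24 being those of sample 3 at 0.0524 FPKM. The highest value belongs to the neuron with cholinergic motoneuron markers, and without it the 4 remaining neurons run from 1.09 to 6.23 FPKM, of which 3 are Type-1 and 1 is Unknown. Means were 3.18 ± 3.09 FPKM in Type-1 and 4.29 ± 8.12 FPKM in Unknown neurons, and the Type-2 neuron had 2 fragments.

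Kcnq5 (chr1:21398403-21961942), the Kv7.5 subunit that can also contribute to the M-current, was at 6.54 FPKM in sample 6 (1584 fragments, 6.22 to 6.87 FPKM) and at 0.358 FPKM in sample 10 (84 fragments, 0.286 to 0.443 FPKM). The other 8 neurons had at most 1 fragment. Sample 6 was the only neuron in which Kcnq3 and Kcnq5 were both at 1 FPKM or more, at 6.23 and 6.54 FPKM. Kcnq1, the cardiac and epithelial member of the family, had no fragment in any neuron.

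Of the 12 other genes of these families, 9 reached 1 FPKM in at least 1 neuron, 6 did so in at least 3, and 3 had no fragment in any neuron. Of 10 silent subunits, which modify Kv2 channels and form none alone, 4 reached 1 FPKM in some neuron, none in 3 or more, and 6 had no fragment. Auxiliary and anchoring genes were more widely present, 15 of the 20 found in the files reaching 1 FPKM in some neuron and 12 in at least 3. The calmodulin genes Calm2 and Calm3, whose product is a constitutive partner of Kv7 channels, and Vapa, which tethers Kv2 channels to the endoplasmic reticulum, were at 1 FPKM or more in all 10 neurons. Ank3, the ankyrin that anchors Kv7 channels at the axon initial segment, was so in 7 neurons, as was Cntnap2, which gathers Kv1 channels beside the node of Ranvier. The cytoplasmic Kv1 beta subunit Kcnab2 was at 9.87, 3.1, 5 and 3.35 FPKM in samples 2, 5, 9 and 10, and so in both neurons with Kcna2. Kcnab3 was at 1.23 to 45.1 FPKM in 6 neurons, sample 2 being the highest. The Kcne1, Kcne2, Kcne3 and Kcne4 genes had no fragment. Of 5 receptors that close M-channels, Chrm1 and Bdkrb2 had no fragment in any neuron and none reached 1 FPKM in 3 or more, the highest value being 16.7 FPKM of the histamine receptor Hrh1 in sample 7.

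The neuron types were compared by the difference of mean log2(FPKM + 1) between the 4 Type-1 and the 5 Unknown neurons, a difference of at least 1, or 2-fold, being counted. Kcnc2 was higher in Type-1 neurons by 1.03 (1.04 ± 2.00 against 0.01 ± 0.01) and Kcna2 was lower by that measure at -1.05 (0.00 ± 0.00 against 1.05 ± 1.41). The remaining differences were 0.18 for Kcnb2, 0.38 for Kcnc1, 0.39 for Kcnq3, 0.64 for Kcnq5 and 0.00 for Kcna1. Among genes with a mean of at least 1 FPKM, 22.6% were higher by as much and 12.4% lower, so that 1 gene of 7 in each direction is near the background. The median over those genes was 0.17 rather than 0. Each of the 2 differences rests on very few cells. Without sample 6 the difference of Kcnc2 was 0.03, without sample 2 that of Kcna2 was -0.65, and without sample 9 it was -0.68. Except for Kcnc2 and for Kcna1, which had no fragment in either group, the ranges of the groups overlap. For Kcnc2 the 3 lower Type-1 neurons hold 4 to 7 fragments beside 0 to 3 in the Unknown neurons. The share of background genes with separate ranges was not computed for these 4 and 5 neurons, so nothing is drawn from the separation.

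**Figure D3:**
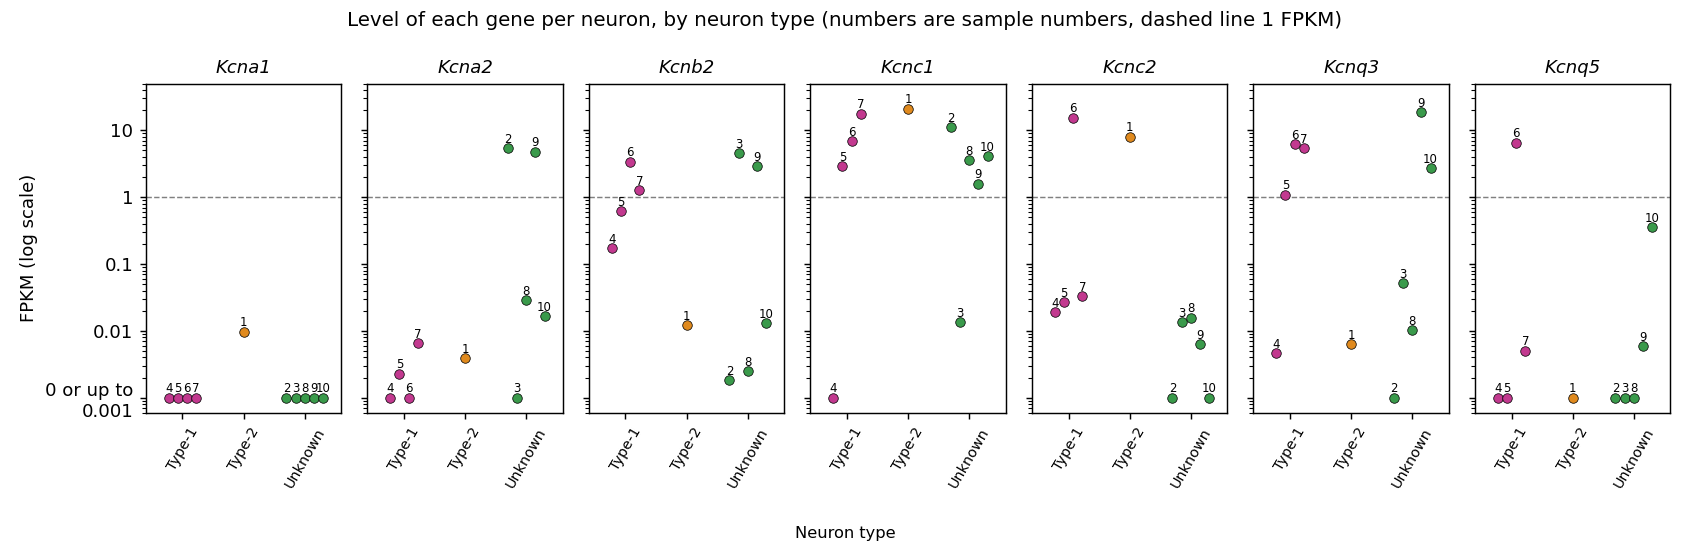
FPKM of each gene (log scale, values of 0 or below 0.001 drawn at the lowest tick) by neuron type, 1 point per neuron with its sample number, the dashed line marking 1 FPKM. All but 3 points lie either above the line or under 0.1 FPKM, and for Kcnc1 and Kcnq3 both kinds occur within Type-1 and within Unknown neurons.

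Sample 4, the neuron with the highest microglial markers, was the only one of its type with no gene of the 7 at 1 FPKM or more. Without it, the 3 remaining Type-1 neurons, all Dbx1-derived, differed from the Unknown neurons by 1.37 for Kcnc2, 1.14 for Kcnc1 (3.06 ± 1.14 against 1.92 ± 1.33), 0.94 for Kcnq3 (2.20 ± 0.99 against 1.26 ± 1.88), 0.88 for Kcnq5, 0.46 for Kcnb2 and -1.05 for Kcna2. Of all genes in the background, 30.9% were then higher and 13.1% lower by 1 or more, with a median of 0.33, and 3.38% had every Type-1 value above every Unknown value. Of the 7 genes only Kcnc2 had such separate ranges, by the low counts given above. Kcnc1 and Kcnq3 were at 1 FPKM or more in all 3 of these neurons, each of which had 8720 to 9223 genes at that level. The share of background genes at that level in all 3 was not computed. With sample 9 left out as well, the difference of Kcnq3 was 1.70, that of Kcnc1 1.01 and that of Kcna2 -0.68, with 31.5% of background genes higher and 15.5% lower by 1 or more. Without samples 1 to 4, which leaves samples 5, 6 and 7 against 8, 9 and 10, the differences were 1.37 for Kcnc2, 1.08 for Kcnc1, 0.82 for Kcnq5, 0.68 for Kcnb2, 0.13 for Kcnq3 and -0.86 for Kcna2, with 22.9% of background genes higher and 17.6% lower.

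The labels also divide the neurons into 4 Dbx1-derived and 6 WT cells. Kcnc1 was at 1 FPKM or more in 4 of 4 Dbx1-derived and 4 of 6 WT neurons, and its mean log2(FPKM + 1) was higher by 1.82 (3.41 ± 1.17 against 1.60 ± 1.43). Its ranges overlap, with 2.9 to 21.2 FPKM against 0 to 11.3 FPKM. Kcnc2 was higher by 1.81 (1.83 ± 2.09 against 0.01 ± 0.01), both neurons with Kcnc2 being Dbx1-derived. Kcnq5, Kcnq3 and Kcnb2 differed by 0.66, 0.60 and 0.23 and Kcna2 by -0.87, both neurons with Kcna2 being WT. Of the background genes 28.2% were higher and 16.7% lower in Dbx1-derived neurons by 1 or more, beside 2 of the 7 channel genes higher and 0 lower, so the share of higher genes was near the background. The median of the background was 0.22. Kcnc2 was the only gene of the 7 with every Dbx1-derived value above every WT value, which was the case for 1.24% of background genes, and its lowest Dbx1-derived value, in sample 5, was 0.0268 FPKM against 0.019 FPKM in sample 4. The only WT neuron of known type was sample 4, and no Dbx1-derived neuron was of Unknown type, so type, mouse line and the mitochondrial share, which was low in all Dbx1-derived and high in 5 of 6 WT neurons, cannot be told apart in these comparisons. The Type-2 neuron, with the highest Kcnc1 and with Kcnc2, had 3 of the 4 inhibitory markers at 1 FPKM or more, Slc32a1 being the exception. The 3 other Dbx1-derived neurons had Slc17a6, and sample 7 also had 1 inhibitory marker at that level. Sample 6, with the highest Kcnc2, had 0 inhibitory markers at that level. Among the WT neurons, sample 10 had 3 of the 4, with Kcnc1 at 4.16 FPKM and no fragment of Kcnc2. The part of transmitter class in these values was not tested. Without samples 4 and 9, Kcnc2, Kcnc1 and Kcnq3 were higher in Dbx1-derived neurons by 1.81, 1.36 and 1.16, and Kcna2 differed by -0.68, with 26.2% of background genes higher and 20.2% lower by 1 or more. Without samples 1 to 4 the neurons left are the same 3 against 3 as for the types, so the values are those given there. The 2 comparisons share most of their neurons in any case.

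By age, Kcna2 was at 1 FPKM or more in both neurons taken at P2 and in none of the 8 taken at P0, P1 or P3. Both were WT neurons of Unknown type, and no Type-1 or Dbx1-derived neuron was taken at P2. Samples 3 and 8 at P0 and sample 10 at P1, also WT and Unknown, had 0, 0.0285 and 0.0165 FPKM. Sample 2 had 7 of 8 microglial markers at 1 FPKM or more, and sample 9 had the cholinergic motoneuron markers. The part of age was not tested, and the share of all genes that divide the ages this way was not computed. Kcnc1 was present at every age, in 3 of 4 neurons at P0, the neuron at P1, both at P2 and 2 of 3 at P3. Kcnq3 was so in 1 of 4 at P0, the neuron at P1, 1 of 2 at P2 and 2 of 3 at P3.

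The many values of a few fragments were set beside the counts that the other libraries would give if their fragments were present at the rate seen for genes nearly private to 1 library. That rate had a median of 0.0437% over pairs of libraries and a range of 0% to 0.768%. Such genes held at least 1000 fragments in 1 library and at most 2% of that count in every other. That limit caps the rate, while true low expression adds to it, so the rate is a guide and not a bound. The 45 values at or below 0.1 FPKM held 94 fragments in all against 81.5 expected. Of these values 22 had no fragment and could not exceed it, and of the 23 with a fragment 9 were at or below the expected count and 14 above. The largest excess was Kcnq3 in sample 3, 24 fragments against 2.56 expected. All 22 values at 1 FPKM or more were at least 35.5 times the expected count. The 3 intermediate values were also above it, with 347 fragments against 5.84 for Kcnb2 in sample 5, 78 against 4.21 for Kcnb2 in sample 4 and 84 against 0.116 for Kcnq5 in sample 10. With a stricter choice of private genes (at least 10000 fragments and at most 1%), of which there were 0 to 9 per library, 12.4 fragments were expected in the 45 values. Of the 23 with a fragment, 1 was at or below the expected count. A library without such a gene was given a rate of 0 and added nothing, so these expected counts are low by construction. Whether the fragments of the 45 values came from other libraries was not tested.

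**Figure D4:**
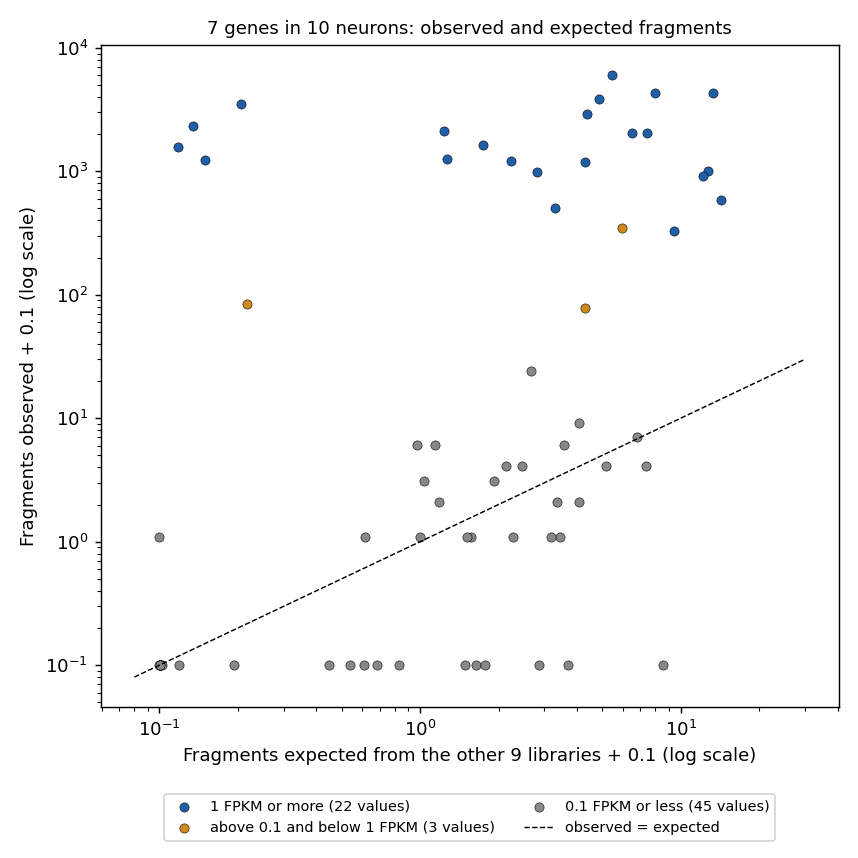
Fragments observed (vertical) against fragments expected from the other 9 libraries (horizontal) for the 70 values, both on log scales after adding 0.1, coloured by FPKM class, the dashed line marking equality. The 22 values at 1 FPKM or more lie far above the line, and the 45 at or below 0.1 FPKM hold at most 24 fragments, on both sides of it.

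The genes whose levels followed a channel gene most closely over the 10 neurons were found by Pearson's r of log2(FPKM + 1) among 9085 protein-coding genes that reached 1 FPKM in 3 or more neurons. The points share libraries that differ in depth and in the number of genes detected, and r was computed over 10 cells. The genes named are the highest of 9085 compared, so these are descriptions only. An r above 0.9 was found for 2 genes with Kcnb2, 11 with Kcnc1 and 14 with Kcnq3. For Kcnc1, 2 of the leading 3 were Wipi2, an autophagy protein (r 0.93, Spearman's rho 0.87), and Tmem191c (0.93, 0.94). For Kcnq3 they were Ecel1, a membrane metallopeptidase of neurons (0.97, 0.90), Zdhhc22, a palmitoyltransferase (0.96, 0.93), and Zfp3, a zinc finger protein (0.96, 0.97). Ecel1 was at 144 FPKM in sample 9, where Kcnq3 was also highest. For Kcnb2 they were Cacng3, an AMPA receptor auxiliary subunit (0.92, 0.81), Adprm (0.91, 0.78) and Cthrc1 (0.90, 0.81). By rho, the leading 3 shared 1 gene with these for Kcnq3 and 0 for Kcnb2. Within the 7 genes, Kcnb2 and Kcnq3 had r 0.54 and rho 0.68, and Kcnc1 and Kcnb2 had r -0.33 and rho -0.38.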

How the data were processed

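The authors trimmed the reads of 10 SMART-Seq libraries, aligned them to GRCm38 with STAR (version 2.7.7a in the submitters' processing notes) and counted fragments with featureCounts. They deposited raw counts per gene, gene lengths and FPKM. Options for fragments matching several places are not given in the sources used here. The deposited FPKM equalled count over length and over the total on genes to within 5.1e-11.

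Groups and ages came from the labels. No test was made, since a neuron is 1 sample and no animal is named. Counts were given exact Poisson 95% intervals. Groups were compared by means of log2(FPKM + 1), with a pseudocount of 1, beside 12955 genes with a mean of at least 1 FPKM, which included 5 of the 7 members. Named were the members, listed family, auxiliary and receptor genes that reached 1 FPKM in 3 or more neurons or had 0 counts in all, and the 3 genes most like a member. Exceptions at 1 FPKM or more in fewer neurons (Kcna7, Hrh1) were named after their values were seen. Some genes and sequences of these lists are not reported here. Members and lists were chosen with earlier results of these data known. Positions come from GENCODE M21, which holds 53292 of the 55367 symbols and whose merged exon lengths equalled the deposited lengths for the members. Scripts were tested on simulated data. For the fold comparison these were genes of higher mean level than any of the 7 members, so that test does not cover genes at the members' levels. Kcne5 was not analysed here. Alternatives were another pseudocount, levels of 0.5 and 2 FPKM, TPM, thinning, and leaving out single neurons, samples 4 and 9, or samples 1 to 4. Tables were handled with pandas 2.3.3 and NumPy 2.4.6 in Python 3.11.15, intervals came from SciPy 1.17.1 and plots from Matplotlib 3.10.9.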

Additional observations from a re-analysis of the deposited data

Results flagged for a closer look

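Dixon's criterion was applied to log2(FPKM + 1) of the genes within the 4 Type-1 and within the 5 Unknown neurons, 12 sets of values once those of Kcna1, all at 0, were set aside, and to the number of the 7 genes at 1 FPKM or more in each group. In 3 of these 14 sets the highest neuron was marked. Chance marks about 1 of 20 sets of normally distributed values, but among genes with a mean of at least 1 FPKM the highest neuron was marked for 22.8% in Type-1 and 24.9% in Unknown neurons, so marks on this scale were common in these libraries. Among the Type-1 neurons, Kcnc2 was at 15.5 FPKM in sample 6 where the nearest neuron had 0.0327 FPKM, the gap being 0.995 of the whole range on the log2 scale. Sample 6 also stood apart for Kcnq5, at 6.54 FPKM against 0.00506 FPKM in the nearest neuron, a gap of 0.997 of the range. Among the Unknown neurons, Kcnq5 was at 0.358 FPKM in sample 10, where the nearest had 0.00589 FPKM, a gap of 0.981 of the range.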

How the results depend on the processing

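The 22 values at 1 FPKM or more became 23 at a level of 0.5 FPKM, 19 at 2 FPKM, 24 in TPM and 22 with every library thinned to the smallest total. Between Type-1 and Unknown neurons, 2 of the 7 genes passed 2-fold. With a pseudocount of 0.1 the count was 5, where 57.1% of background genes passed in place of 35%. It was 1 to 3 when a neuron was left out in turn (1 without sample 6 and 1 without sample 2, 3 without sample 4). Without samples 4 and 9 it was 3, beside 47% of background genes, and without samples 1 to 4 it was 2, beside 40.5%, both settings chosen after seeing the data. The genes changed with the setting. Kcna2 no longer passed in either, at -0.68 and -0.86, and Kcnc1 passed in both, at 1.01 and 1.08. Between Dbx1-derived and WT neurons 2 genes passed, beside 44.9% of background genes. The count was 5 at a pseudocount of 0.1, where 67.8% of background genes passed, 4 in TPM, where 57.3% did, 3 without samples 4 and 9, where 46.4% did, 2 without samples 1 to 4, and 2 to 3 when a neuron was left out. With no filter on low values, 21.7% of genes passed 2-fold between Type-1 and Unknown neurons. Leaving out a neuron moved the difference of Kcnc1 between -0.27 and 1.14, Kcnq3 between -0.01 and 1.16, Kcnb2 between -0.18 and 0.57, Kcnq5 between -0.09 and 0.88, Kcnc2 between 0.03 and 1.37 and Kcna2 between -1.31 and -0.65. The cause of these shifts was not tested. No paired analysis was possible because the comparisons come from no test and the labels name no animal shared between groups.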
